A study of Mus musculus with 18 samples.

Results

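The 4 libraries described here hold the circular RNAs (circRNAs) of whole NIH/3T3 cells, 2 from XPO4 knockout (KO) cells and 2 from wild-type (WT) cells, chosen by their titles out of the 18 libraries of the series. Their lists name 10700 circRNAs, of the 16171 in any circRNA library of the series. NIH/3T3 is a mouse embryonic fibroblast line. Both genotypes are this line, the KO cells are a line edited with CRISPR-Cas9 in Xpo4, and no other treatment or allele is given for either. Because the KO is a single cell line, an effect of XPO4 and a difference between cell lines cannot be told apart. Nothing in the labels says that replicates came from separate cultures, so p-values measure only the spread between these libraries, which may be technical. The comparison asks whether loss of XPO4 changes how much of each circRNA the whole cell holds, beside the nuclear and cytoplasmic fractions of the study. The 6 mRNA libraries of the same genotypes, 3 each, gave the linear output of the host genes, and 4 cytoplasmic circRNA libraries, 2 of each genotype, were set beside the named circRNAs.

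A circRNA forms when the spliceosome joins the end of an exon back to the start of the same or an upstream exon, a step called backsplicing. The closed ring has no free ends, so RNase R, which digests linear RNA, leaves it, and only reads across the backsplice junction mark it. Most exonic circRNAs are found in the cytoplasm, and XPO4 is an exportin, a carrier that moves cargo out of the nucleus. A circRNA is named here by its host gene and its first and last exon, so circHipk3(2-2) is exon 2 of Hipk3 joined to itself. Exons were numbered on a GENCODE vM21 transcript that holds both ends, on the GRCm38 build used by the deposited lists.

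The junctions of the circRNAs that differed most between the genotypes are given first, since a read across such a junction is what was counted. In each sequence the lower-case bases are the last of the circle and the capitals are its first, read 5′ to 3′ on the strand of the gene, with positions on GRCm38. The first 3 had reads in KO and almost none in WT.
circNfix(2-2), chr8:84771784-84772315, minus strand: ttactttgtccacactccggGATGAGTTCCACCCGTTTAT
circPvt1(2-2), chr15:62107148-62107465, plus strand: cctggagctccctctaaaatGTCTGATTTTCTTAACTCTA
circLtbp1(6-7), chr17:75225156-75227241, plus strand: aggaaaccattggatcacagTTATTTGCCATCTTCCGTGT
The next 4 had reads in WT and almost none in KO.
circGlis3(4-4), chr19:28530873-28531986, minus strand: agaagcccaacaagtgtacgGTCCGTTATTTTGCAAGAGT
circGlis3(3-4), chr19:28530873-28540408, minus strand: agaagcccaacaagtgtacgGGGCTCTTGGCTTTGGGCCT
circRsrc1(2-3), chr3:66994517-66996590, plus strand: aagcagaaccagaagAAATGGGACGCCGGT
circElf2(2-4), chr3:51308050-51326035, minus strand: agaattcagaaacagTAGTTCCAGAGAACC
The 2 Glis3 circles end on the same base of exon 4 and differ in where they begin. The circles of Nfix, Ltbp1 and Glis3 lie in coding sequence, those of Rsrc1 and Elf2 hold coding sequence and UTR, and Pvt1 is a noncoding gene.

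Depth was 57780 and 55109 junction reads for WT against 58165 and 50341 for KO. They listed 9902 and 9907 circRNAs in WT against 9779 and 9851 in KO, with a median of 4 reads for a listed circRNA in each library. Both ends lay on exon edges of 1 gene for 10677 of the 10700, and a transcript with both ends was found for 10527, all of which had AG before and GT after the circle. These circRNAs came from 3904 host genes, of which 1733 had a single circRNA and 118 had 10 or more. Every circRNA was listed in at least 2 of the 4 libraries, 7717 of them in all 4, 212 in both WT libraries alone and 166 in both KO libraries alone. Reads without molecular identifiers are not independent molecules, so the intervals given here cover counting error only. All 12 fibroblast marker genes were above 1 FPKM (fragments per kilobase, scaled to the library total) in the mRNA libraries, and their sum was 3577 to 3678 FPKM in WT and 3821 to 3935 in KO. The extract protocol in the labels speaks of peripheral blood. Of 8 leukocyte markers 1 was above 1 FPKM, with a sum of 4.40 to 6.35 in WT and 3.28 to 4.11 in KO and Cd3e and Ms4a1 at 0. Of 6 erythroid markers none was above 1 FPKM, with a sum of 0.107 to 0.226 in WT and 0.582 to 0.716 in KO and the globin genes Hba-a2, Hbb-bs and Hbb-bt at 0. The sum of 6 epithelial markers was 2.67 to 2.96 FPKM in WT and 0.298 to 0.674 in KO, with Epcam and Krt18 at 0, and that of 5 endothelial markers was 0.265 to 0.327 in WT and 0.175 to 0.307 in KO. In bulk RNA, fewer cells holding a circRNA and less of it in each cell cannot be told apart.

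The mean level of whole-cell circRNAs was nearly the same in both genotypes. Over the circRNAs listed in a library, the mean log10 reads were 0.572 and 0.570 for WT, and 0.549 and 0.551 for KO. Each KO library was below each WT library, with a mean KO minus WT difference of -0.0208 (exact two-sided permutation over libraries, p = 0.333, and 2 against 2 cannot give less). Circles of a single exon took 6.76% and 6.68% of the annotated junction reads for WT against 9.04% and 8.44% for KO, so the groups did not overlap (exact permutation test, p = 0.333). Without circNfix(2-2) and circPvt1(2-2), both single-exon circles, these shares were 6.76% and 6.67% for WT against 6.996% and 6.07% for KO, which overlapped. The mean spliced length weighted by reads was 628 and 631 nt in WT and 623 and 633 nt in KO, and the KO values lay on both sides of the WT values (exact permutation test, p = 1).

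Single circRNAs were not alike in the 2 genotypes in the way that their mean level was. With edgeR's quasi-likelihood test, 0 of 8903 tested circRNAs had an adjusted p under 0.05, and the smallest adjusted p was 0.0580. At an unadjusted p under 0.05 there were 3405, 1770 of them higher and 1635 lower in KO, which is 38.2%, 19.9% and 18.4% of those tested. With an adjusted p under 0.10, 2489 (28.0%) would be called. DESeq2 called 7 at an adjusted p under 0.05, 3 higher and 4 lower, and these are the 7 whose junctions are printed above. The count was sensitive to the scaling and to single libraries, at 1832 with DESeq2 size factors in edgeR, 508 without WT replicate 1, 338 without WT replicate 2, and 0 without either KO replicate.

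Reads of a circRNA formed a low and a higher class within each genotype, and the class was shared by its replicates. Summed over the 2 replicates, the number of circRNAs had a valley at 5 reads between peaks at 2 and at 8 to 9, as the plot of reads per genotype shows. In WT, 3028 circRNAs (28.3%) had at most 2 reads in each replicate, with a mean of 1.03, and 6359 had at least 3 in each. In KO the same counts were 3361 (31.4%), a mean of 1.03, and 6002. A circRNA with 0 or 1 read in a replicate and 5 or more in the other was seen 1 time in WT and 0 times in KO. The limit of 2 reads was set after these values were seen.

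**Figure D1:**
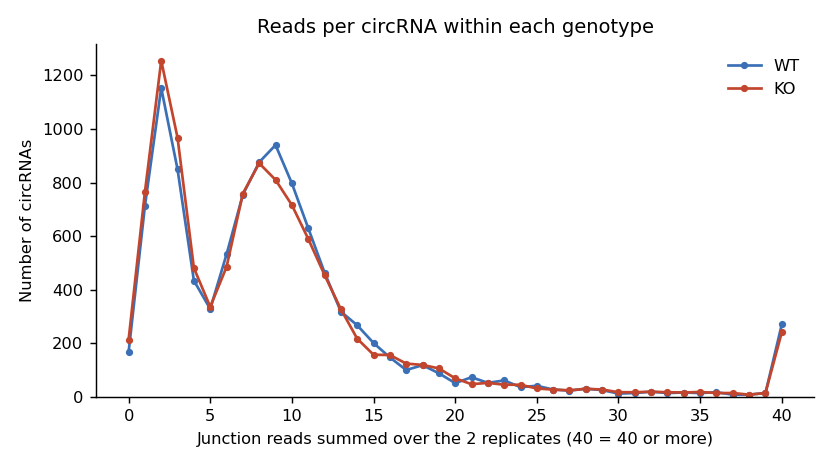
Number of circRNAs (vertical axis) by junction reads summed over the 2 replicates of WT or KO (horizontal axis, 40 stands for 40 or more). Each point is a count of circRNAs, and both genotypes have a peak at 2 reads, a valley at 5 and a broad peak at 8 to 9.

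The low class held largely different circRNAs in the genotypes. Of the 10700, 3319 (31.0%) were low in KO only, 2986 (27.9%) in WT only, 42 in both, and 4353 (40.7%) in neither. The circRNAs low in KO had a mean of 4.81 reads in WT and 1.02 in KO, and those low in WT had 1.03 in WT and 5.15 in KO. Of the circRNAs with p under 0.05, 1576 were low in WT and 1490 in KO. Among the 4310 tested circRNAs that were low in neither genotype, 339 had p under 0.05, 7.87%. These sets come from the same reads as the test and lend it no support. Fitted alone, the 2924 circRNAs with at least 3 reads in every library gave 0 calls in edgeR and 191 at an unadjusted p under 0.05 (6.53%). This filter was added after the data were seen. It leaves out every circRNA of the low class, and so the widest differences, before the test.

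**Figure D2:**
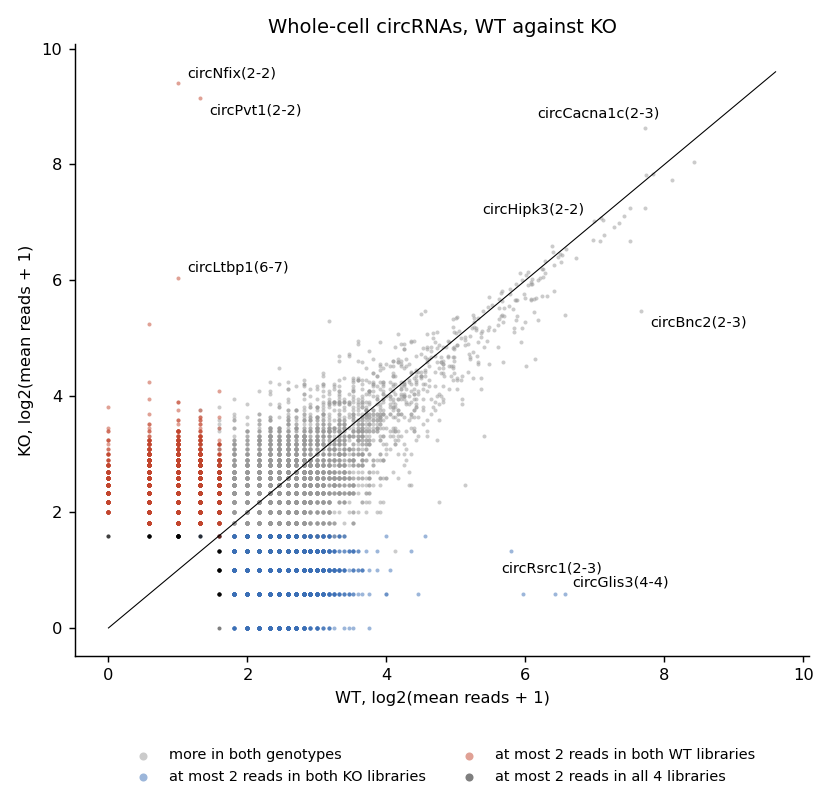
Mean junction reads of each of the 10700 whole-cell circRNAs in KO (vertical) against WT (horizontal), both as log2(mean reads + 1). Colours mark circRNAs with at most 2 reads in both libraries of a genotype, the line is equality, and of the 8 labelled circRNAs circNfix(2-2), circPvt1(2-2) and circGlis3(4-4) lie far from it and circHipk3(2-2) near it.

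Most circRNAs of the low class had few reads, which its limit of 2 reads sets in part. Those low in neither genotype were 29.2% of the circRNAs with 10 to 19 reads over the 4 libraries. With 160 or more reads they were 95.7%. The share with p under 0.05 was 47.8% of 6274 circRNAs with 10 to 19 reads over the 4 libraries, 18.3% of 1899 with 20 to 39, 9.36% of 481 with 40 to 79, 4.49% of 156 with 80 to 159 and 7.53% of 93 with 160 or more. Across the 8903 tested circRNAs, which are not independent, Spearman's rho was 0.700 between the WT and 0.710 between the KO replicates, and -0.0880 to 0.0452 between genotypes. Among the 93 most abundant it was 0.823, 0.606 and 0.495 to 0.543. A minimum of reads over the 4 libraries itself sets part of the rho of the low bins. Summed by host gene, rho was 0.899 and 0.892 between replicates and 0.664 to 0.711 between genotypes, over 3564 hosts.

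Replicates also differed by read number in how closely they agreed. With a chi-square per circRNA of 1 expected from binomial sampling, circRNAs with 4 to 10 reads in a genotype gave 0.538 in WT and 0.630 in KO. Those with 81 or more gave 2.61 in WT and 21.6 in KO. The WT and KO replicates therefore differed beyond sampling noise in their abundant circRNAs, and each was counted as a separate sample. Of the 93 most abundant circRNAs, 47 had more than 2-fold the reads, scaled to library totals, in KO replicate 1 that they had in KO replicate 2, against 1 in that direction between the WT replicates. The study merged the circRNAs found in both replicates. How is not given in the sources used here, and the part of that step in these patterns was not tested.

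The circRNAs of the 2 low sets were alike in the features that the lists did not use. Their median spliced length was 537 nt where low in KO and 542 nt where low in WT, against 498 nt for those low in neither. Both low sets had a median of 4 exons, against 3, and a median GC content of 47.9% and 48.0%, against 47.7%. The share listed in any cytoplasmic library was 29.4% and 27.0%, against 69.2%. Of the 3110 hosts with a circRNA of either low set, 993 had at least 1 of each. Among the circRNAs low in KO, 742 (22.4%) shared a first or last base with one low in WT.

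Among abundant circRNAs, 7 combined over 50 mean reads in a genotype with at most 2 reads in both libraries of the other. They were the extremes among the 87 tested circRNAs with at least 50 mean reads in the higher genotype, of which 80 were low in neither. circNfix(2-2), exon 2 of 9 of Nfix (ENSMUSG00000001911.16), has 532 nt, and Nfix encodes a transcription factor of the nuclear factor I family. It had 2 and 0 reads in WT against 681 and 677 in KO, the most of any circRNA in the KO libraries. The KO to WT ratio of reads, scaled to library totals, was 706, with an exact 95% counting interval of 195 to 5839 (edgeR, unadjusted p = 1.98e-05, adjusted p = 0.0580, and adjusted p = 4.86e-12 in DESeq2). The groups did not overlap, and neither did those of 70.1% of all tested circRNAs.

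circPvt1(2-2), exon 2 of the long noncoding RNA gene Pvt1 next to Myc, has 318 nt. It had 1 and 2 reads in WT against 566 and 569 in KO, a ratio of 394 with a counting interval of 134 to 1912 (edgeR, adjusted p = 0.0580). circLtbp1(6-7), 500 nt from a gene whose protein binds latent TGF-beta in the matrix, had 1 and 1 reads in WT against 112 and 18 in KO, a ratio of 67.6 (18.3 to 564). The KO replicates of Ltbp1 lay far apart, and both were above WT. In DESeq2 the adjusted p was 2.21e-13 for circPvt1(2-2) and 0.00465 for circLtbp1(6-7).

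The other 4 were almost absent in KO. circGlis3(4-4), 1114 nt from a gene for a zinc finger transcription factor, had 103 and 85 reads in WT against 1 and 0 in KO, a WT to KO ratio of 181 (32.0 to 7175). circGlis3(3-4) of the same gene, 1322 nt, had 57 and 66 in WT against 0 and 1 in KO, a ratio of 118 (20.8 to 4707). Both Glis3 circles hold exon 4 and share the base at which it ends. circRsrc1(2-3), 322 nt from a gene for an arginine and serine rich splicing protein, had 91 and 79 in WT against 0 and 1 in KO, a ratio of 163 (28.9 to 6491). circElf2(2-4), 484 nt from a gene for an ETS family transcription factor, had 56 and 53 in WT against 1 and 2 in KO, a ratio of 34.9 (11.6 to 172). All 4 had an adjusted p of 0.0580 in edgeR and between 0.00410 and 0.0169 in DESeq2.

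The cytoplasmic libraries of the same genotypes listed all 7 with reads in both genotypes, as the plot by library shows. The cytoplasmic reads given here are not scaled to library totals. There circNfix(2-2) had 1837 and 1871 reads in WT against 682 and 685 in KO (scaled log2 fold change -0.90, edgeR adjusted p = 0.893). circPvt1(2-2) had 834 and 838 in WT against 436 and 1282 in KO, and circGlis3(4-4) had 69 and 68 in WT against 33 and 34 in KO. circRsrc1(2-3) had 145 and 78 in WT against 78 and 64 in KO. circGlis3(3-4) had 76 and 43 against 36 and 39, and circLtbp1(6-7) had 51 and 34 against 26 and 39. circElf2(2-4) had 94 and 118 in WT against 18 and 17 in KO, lower in KO as in whole cells (cytoplasmic log2 fold change -2.05, edgeR adjusted p = 0.0415). No other of the 7 had a cytoplasmic adjusted p under 0.05 in edgeR. circNfix(2-2), at 2 and 0 reads in WT whole cells, thus led the WT cytoplasmic reads of these 7. Why the lists differ was not tested.

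**Figure D3:**
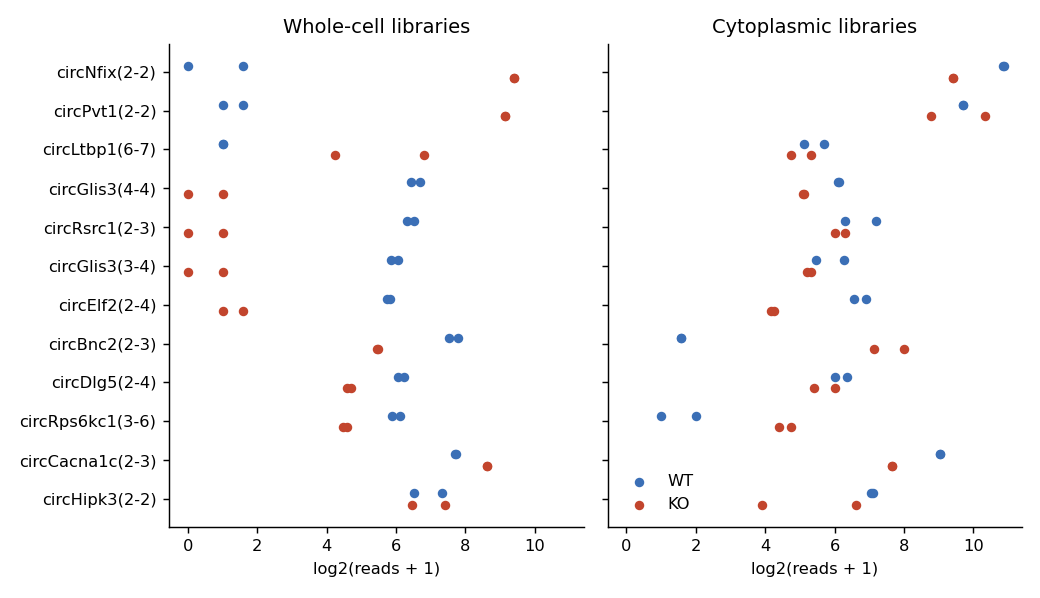
Junction reads, as log2(reads + 1) on the horizontal axis, of 12 named circRNAs in the whole-cell libraries (left) and the cytoplasmic libraries (right), with a point for each library. In whole cells the WT and KO points of the upper 7 circRNAs lie far apart, and in the cytoplasm both genotypes have reads of them.

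Of the circRNAs with over 50 mean reads in the higher genotype and an unadjusted p under 0.05, the remaining 3 had more reads in WT and over 20 in every library. circBnc2(2-3), 327 nt from a gene for a zinc finger protein, had 220 and 183 in WT against 44 and 43 in KO (log2 fold change -2.17, SE 0.60, edgeR adjusted p = 0.0580). In the cytoplasm it had 2 and 2 reads in WT against 139 and 256 in KO. circDlg5(2-4), 491 nt from a gene for a scaffold protein of cell junctions, had 65 and 74 in WT against 25 and 23 in KO (log2 fold change -1.49, SE 0.55, adjusted p = 0.0933). circRps6kc1(3-6), 691 nt from a gene for a protein related to ribosomal S6 kinase, had 69 and 58 in WT against 23 and 21 in KO (log2 fold change -1.48, SE 0.55, adjusted p = 0.0933). Its cytoplasmic reads were 1 and 3 in WT against 20 and 26 in KO. For each of the 3, both KO libraries were below both WT libraries in whole cells, but the rule that chose them required this.

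In several of the other abundant circRNAs the genotype means lay closer together than the KO replicates. circMettl9(2-4), from a gene for a methyltransferase, had 271 and 182 reads in WT against 307 and 146 in KO (log2 fold change 0.03, SE 0.65). circNsd2(1-2), from a gene for a histone methyltransferase, had 221 and 205 in WT against 267 and 180 in KO (log2 fold change 0.10, SE 0.60). circRasa2(2-5), from a gene for a GTPase-activating protein of Ras, had 294 and 254 in WT against 353 and 70 in KO. circCped1(11-15) had 173 and 187 in WT against 268 and 33 in KO. In each of these the WT values lay between the KO values. circUbe2k(2-6) (224 and 198 in WT, 224 and 77 in KO) and circKat6b(2-2) (191 and 150, 201 and 73) also had genotype means closer than the KO replicates. A wider gap, without p under 0.05, was that of circCacna1c(2-3). circCacna1c(2-3), from a gene for a calcium channel subunit, had 209 and 212 in WT against 394 and 394 in KO (log2 fold change 0.95, SE 0.60, edgeR adjusted p = 0.268). Its cytoplasmic reads, not scaled to library totals, had the reverse order, 528 and 528 in WT against 199 and 200 in KO. The scaled cytoplasmic difference was not called (log2 fold change -0.87, edgeR adjusted p = 0.797).

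Of the 5 hosts whose circRNAs the study imaged in 3T3 cells, Nfix has been described. circHipk3(2-2), 1099 nt of a gene for a homeodomain-interacting kinase and among the best known circRNAs, had 161 and 90 reads in WT against 170 and 88 in KO (log2 fold change 0.07, SE 0.63, edgeR adjusted p = 0.954). The 2 genotypes overlapped almost wholly. circSpecc1(6-10) had 13 and 9 in WT against 14 and 5 in KO, which also overlapped. The summed output of Specc1 did not overlap, with 52 and 37 reads in WT against 27 and 18 in KO (log2 fold change -0.93, SE 0.32, edgeR adjusted p = 0.0851). circWwc1(2-3), from a gene of the Hippo pathway, had 4 and 4 in WT against 1 and 1 in KO (log2 fold change -1.84, SE 0.63, unadjusted p = 0.0550, adjusted p = 0.132), and the summed output of Wwc1 fell from 8 and 8 to 1 and 1 (log2 fold change -2.80, SE 0.60, edgeR adjusted p = 0.0358). Over these hosts 2 circRNAs were higher and 3 lower of 13 tested at p under 0.05, 38.5%, near the 38.2% of all circRNAs. No circRNA of Adarb1 was listed in whole cells.

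Xpo4 itself had 3 circRNAs in whole cells, which together had 10 and 9 reads in WT against 12 and 15 in KO. They ran over exons 2 to 4, 4 to 7 and 8 to 12. circXpo4(4-7) had 7 and 5 reads in WT against 1 and 2 in KO, and circXpo4(8-12) had 2 and 1 in WT against 5 and 9 in KO. Their sum gave a log2 fold change of 0.55 (SE 0.33, edgeR adjusted p = 0.363). Xpo4 mRNA had 657, 614 and 685 counts in the libraries labelled WT and 712, 504 and 687 in those labelled KO, which overlapped (log2 fold change 0.18, SE 0.11, adjusted p = 0.193). Neither measure tells the genotypes apart. The heading inside each mRNA file names the other genotype, the sample titles were followed, and every mRNA direction below rests on those titles.

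Summed over its circles, a host's circRNA output differed between genotypes for 313 of 3564 hosts (edgeR, adjusted p under 0.05), 8.78% of those tested, with 172 higher (4.83%) and 141 lower (3.96%) in KO. DESeq2 called 3, Nfix, Pvt1 and Rsrc1. Nfix output rose from 10 and 13 reads in WT to 697 and 686 in KO (log2 fold change 5.95, SE 0.45, edgeR adjusted p = 7.28e-04). Pvt1 output rose from 49 and 50 to 615 and 622 (log2 fold change 3.69, SE 0.38, adjusted p = 0.00355). Rsrc1 output fell from 93 and 82 to 5 and 4 (log2 fold change -4.19, SE 0.38, adjusted p = 0.00184). In each, 1 circle held nearly all reads of the higher genotype, 98.2% for circNfix(2-2), 91.8% for circPvt1(2-2) and 97.1% for circRsrc1(2-3).

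Bnc2 output fell from 243 and 212 to 72 and 73 (log2 fold change -1.59, SE 0.32, edgeR adjusted p = 0.0358), and Elf2 output fell from 82 and 76 to 18 and 27 (log2 fold change -1.75, SE 0.33, adjusted p = 0.0347). The Bnc2 log2 fold change was -1.58 in DESeq2 with an adjusted p of 0.152, and -1.75 to -1.46 with each library left out, with adjusted p of 0.119 to 0.215. Glis3 output was 334 and 331 reads in WT against 177 and 118 in KO. Ltbp1 had 82 and 64 against 190 and 107, and Cacna1c 240 and 245 against 424 and 434. These hosts were picked for an unadjusted p under 0.05, and their edgeR adjusted p were 0.0648, 0.0812 and 0.107. With KO replicate 2 left out 0 hosts were called, with KO replicate 1 left out 2, and with WT replicate 1 or 2 left out 223 or 174. Without KO replicate 2 the log2 fold changes were 6.02 for Nfix, 3.74 for Pvt1 and -3.99 for Rsrc1, with adjusted p of 0.0713, 0.0713 and 0.215. Pvt1 was at 3.59 and 3.65 without WT replicate 1 and 2 (adjusted p = 0.0632 and 0.0841), and Rsrc1 at -4.24 without KO replicate 1 (adjusted p = 0.151).

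Hosts with many circles showed the low classes side by side. Birc6, which encodes a large inhibitor of apoptosis, had the most circRNAs, 24, of which 5 were low in WT, 7 in KO and 12 in neither. Its summed reads were 97 and 105 in WT against 84 and 85 in KO. Nbea, which encodes a protein of membrane trafficking, had 22, of which 4 were low in WT and 10 in KO, and 188 and 160 reads in WT against 138 and 93 in KO. Rabep1 with 22 circRNAs, Fer with 21 and Rere with 21 likewise had circles of each class. The adjusted p of these 5 outputs lay between 0.283 and 0.970.

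Within hosts, the share taken by single circles was compared. Of 7262 circles in 1899 hosts, 779 (10.7%) differed in usage (edgeR's differential splicing test, adjusted p under 0.05), in 555 hosts, with a larger share in KO for 389 (5.36%) and a smaller one for 390 (5.37%). At an unadjusted p under 0.05 the share was 29.5%. With a library left out there were 76 or 95 calls without WT replicate 1 or 2, and 48 or 23 without KO replicate 1 or 2. Of the 779, 709 belonged to the low sets. The circle with the most reads was the same in both genotypes in 829 of 1899 hosts, 43.7%, where reads were pooled by genotype. Its 95% Wilson interval, 41.4% to 45.9%, takes hosts as independent and does not measure the spread between libraries. Between single libraries the leading circle was the same in 72.5% for the WT and 71.5% for the KO replicates, and in 44.3% to 51.0% for a WT and a KO library. Tied circles counted as the same when any was shared. Ties come more easily in single libraries, so single-library and pooled shares are not directly comparable. Where the leading circle had at least 20 mean reads in a genotype, it was the same in 86.8% of 227 hosts with pooled reads. Between single libraries this was 93.8% for the WT and 82.4% for the KO replicates, and 77.5% to 89.4% between genotypes.

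Glis3 shows such a difference within a gene, as the plot of circles by host shows. Its circles with exon 4, circGlis3(4-4) and circGlis3(3-4), took a lower share in KO (usage log2 differences -4.20 and -3.77, adjusted p = 3.52e-07 and 1.30e-05). Circles before and after them kept reads in both genotypes. circGlis3(2-2) had 77 and 80 in WT against 76 and 28 in KO, and circGlis3(5-6) had 53 and 55 in WT against 65 and 48 in KO. The neighbours are joined at other bases.
circGlis3(2-2), chr19:28665753-28666236, minus strand: caaatcctgagaaagACTTATCACCTATCC
circGlis3(5-6), chr19:28354206-28357952, minus strand: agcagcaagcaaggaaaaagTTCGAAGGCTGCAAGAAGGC
The leading Glis3 circle was circGlis3(4-4) in WT and circGlis3(5-6) in KO.

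In Pvt1, 5 circles start at the same base of exon 2 and differ in where they end, so their junctions share the capitals. They are shown because circles with a common start had different reads in KO.
circPvt1(2-2), to 62107465: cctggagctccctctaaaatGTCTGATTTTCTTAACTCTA
circPvt1(2-3), to 62149352: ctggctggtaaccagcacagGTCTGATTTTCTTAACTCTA
circPvt1(2-5), to 62175548: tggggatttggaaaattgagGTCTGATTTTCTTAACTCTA
circPvt1(2-2) took a larger share in KO (usage log2 difference 3.33, adjusted p = 1.45e-05), and circPvt1(2-3) and circPvt1(2-5) smaller ones (-2.09 and -2.996, adjusted p = 2.49e-04 and 1.52e-10). For circPvt1(2-2) the difference was 2.78 without WT replicate 1 (adjusted p = 0.111) and 1.84 among circRNAs with at least 40 reads (adjusted p = 0.0152). circPvt1(2-3) had 12 and 6 reads in WT against 12 and 16 in KO, and circPvt1(2-5) had 12 and 9 in WT against 5 and 8 in KO. Of the 2 circles from exon 2 to exon 4, that of 564 nt had 2 and 1 reads in WT against 13 and 10 in KO, and that of 499 nt had 3 and 7 in WT against 0 and 0 in KO. In Elf2, circElf2(2-4) took a lower share in KO (usage log2 difference -2.26, adjusted p = 0.00556), while circElf2(2-3) had 9 and 9 in WT against 4 and 10 in KO, and circElf2(2-5), whose share was larger in KO (1.82, adjusted p = 7.59e-04), had 9 and 4 in WT against 11 and 12 in KO. For circElf2(2-4) the usage difference was -2.29, -2.23 and -2.47 without WT replicate 1, WT replicate 2 and KO replicate 2, with adjusted p of 0.0684, 0.0550 and 0.0955. All 3 Elf2 circles begin at the same base of exon 2. In Ltbp1, circLtbp1(6-7) took a larger share in KO (usage log2 difference 3.30, adjusted p = 2.62e-05). Without WT replicate 1 or 2 it was 2.92 or 3.15, with adjusted p of 0.103 and 0.0545. circLtbp1(3-3) had 16 and 15 in WT against 15 and 9 in KO.

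**Figure D4:**
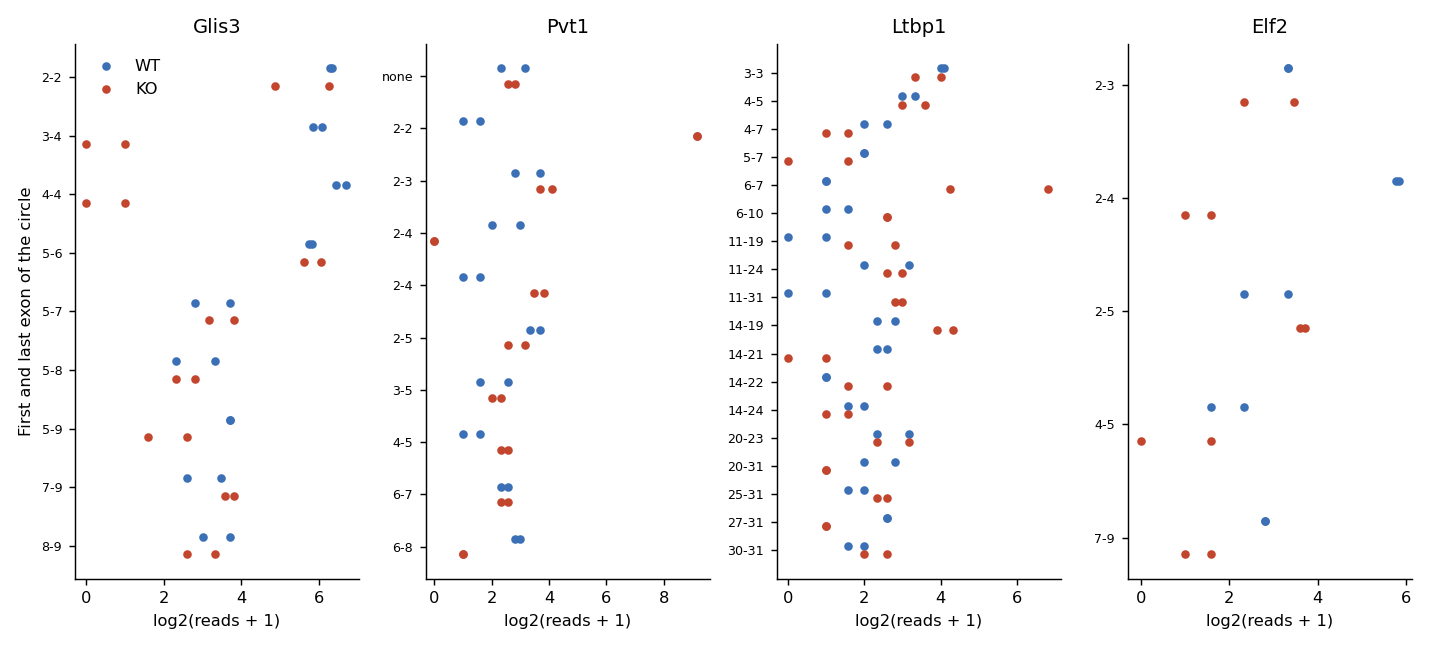
Junction reads, as log2(reads + 1) on the horizontal axis, of every whole-cell circRNA of Glis3, Pvt1, Ltbp1 and Elf2, named by first and last exon on the vertical axis (none, no transcript found), with a point for each library. The circles 4-4 and 3-4 of Glis3, 2-2 of Pvt1, 6-7 of Ltbp1 and 2-4 of Elf2 have the widest gaps between WT and KO among the abundant circles of their hosts.

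Gene lists were read against the background of all circRNAs, whose share with p under 0.05 was 38.2% and whose median log2 fold change was -0.08, and of all hosts, of which 8.78% were called, 4.83% higher and 3.96% lower. The share with p under 0.05 was largest among circRNAs with few reads, and the lists differ in reads. circRNAs low in neither genotype were 40.7% of all, 28.9% for nuclear transport and 59.5% for TGF-beta and BMP. No list was set against circRNAs of like read number. Receptors and SMADs of TGF-beta and BMP signaling are the pathway that carries growth factor signals from the membrane to the nucleus. Of its 23 genes 14 had 37 whole-cell circRNAs, and of 35 tested, 4 were higher and 6 lower at p under 0.05, 28.6%, with a median of 0.19. None of the 14 hosts was called in edgeR. circSmad1(2-2), from the gene of a BMP effector, had 54 and 73 reads in WT against 89 and 46 in KO. circAcvr1(7-9), from a type I receptor gene, had 11 and 9 in WT against 2 and 5 in KO (unadjusted p = 0.0243, adjusted p = 0.0933), and 0 and 0 in WT against 16 and 17 in KO in the cytoplasm. circBmpr2(2-3), from a type II receptor gene, had 15 and 8 in WT against 4 and 5 in KO (unadjusted p = 0.0378, adjusted p = 0.115).

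Genes known to make conserved circRNAs gave 62 tested circRNAs, of which 12 were higher and 9 lower at p under 0.05, 33.9%, with a median of 0.21. Nfix and Pvt1 were among the called hosts of this list, with Mbnl1, a splicing regulator that makes a circle of its own transcript. Mbnl1 output fell from 22 and 22 reads to 8 and 9 (log2 fold change -1.31, SE 0.31, edgeR adjusted p = 0.0420). circFbxw7(3-3) had 20 and 16 reads in WT against 39 and 19 in KO, and circCrim1(6-7) had 64 and 48 in WT against 28 and 39 in KO. circHipk2(2-2) had 23 and 14 in WT against 9 and 4 in KO (unadjusted p = 0.0318, adjusted p = 0.103).

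Of genes of circRNA formation and export, 7 circRNAs were higher and 9 lower of 31 tested, 51.6%, with a median of -0.83, and 2 of 13 hosts fell, Mbnl1 and the splicing regulator Rbfox2 (15 and 17 reads in WT, 7 and 5 in KO, edgeR adjusted p = 0.0489). Of nuclear transport genes, carriers and nucleoporins, 23 circRNAs were higher and 19 lower of 88 tested, 47.7%, with a median of -0.02 and no host of 28 called. Matrix genes had 15 higher and 9 lower of 47, 51.1%, with a median of 0.32 and no host of 13 called. Chromatin genes had 34 higher and 36 lower of 195, 35.9%, with the histone methyltransferase gene Setd2 rising from 11 and 10 to 25 and 31 reads (edgeR adjusted p = 0.0363). Actin and adhesion genes had 23 higher and 22 lower of 111, 40.5%, and ubiquitin ligases 18 higher and 22 lower of 112, 35.7%. Each of the last 2 lists had 1 called host that rose, both from very few reads. Fermt2 had 1 and 0 reads in WT against 5 and 7 in KO, and Nedd4l 1 and 2 against 10 and 10. The ligase gene Ube3a fell from 14 and 12 to 4 and 3 reads. In DESeq2 the adjusted p was 0.568 for Fermt2 and Ube3a, and 0.559 for Nedd4l and Setd2.

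Host mRNA was compared next. Of 14688 genes tested, 7151 (48.7%) differed between the mRNA libraries labelled KO and WT (edgeR, adjusted p under 0.05), with 3684 (25.1%) up and 3467 (23.6%) down in KO. Of 3861 tested hosts 2129 differed, 55.1%, with 1001 higher and 1128 lower and 159 beyond 2-fold. Across 3529 hosts, the log2 fold changes of circRNA output and mRNA had a Spearman's rho of -0.0451, and host reads in a library and host FPKM one between -0.0179 and 0.0262. Of the 310 called hosts with mRNA tested, 71 had mRNA called in the same and 104 in the opposite direction by the titles. If the file headings were followed, these counts would change places and the first rho would change sign. By the titles, mRNA was higher in KO for 26.2% and lower for 29.0% of hosts of circRNAs low in KO, and higher for 24.5% and lower for 31.6% of hosts of those low in WT. By the headings, higher and lower would change places in both.

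The hosts of the 7 circRNAs with the widest gaps had mRNA log2 fold changes within 1 of 0, with directions that rest on the titles. Nfix mRNA was 55.8 ± 1.83 FPKM in WT and 57.3 ± 4.50 in KO (SD, n = 3, edgeR adjusted p = 0.649). Pvt1 RNA fell from 5.74 ± 0.532 to 3.63 ± 0.148 FPKM (log2 fold change -0.66, SE 0.08, edgeR adjusted p = 1.67e-05), while its circRNA output rose. Rsrc1 mRNA rose from 5.13 ± 0.521 to 7.43 ± 0.252 FPKM (log2 fold change 0.53, SE 0.07, adjusted p = 4.87e-05), while its circRNA output fell. Ltbp1 mRNA rose from 25.5 ± 0.278 to 39.9 ± 2.23 FPKM (log2 fold change 0.64, SE 0.05, adjusted p = 5.61e-07). Elf2 mRNA was 5.53 ± 0.149 and 5.57 ± 0.258 FPKM, and Glis3 mRNA 7.75 ± 0.585 and 6.73 ± 1.31 FPKM, with adjusted p of 0.900 and 0.137. Counting did not use strand, so reads of antisense genes cannot be told apart from these.

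**Figure D5:**
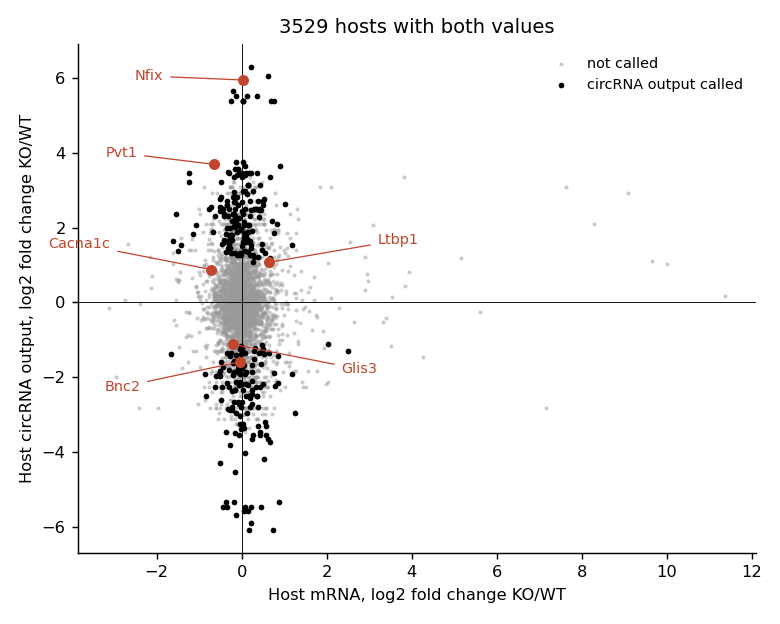
Log2 fold change KO/WT of host circRNA output (vertical) against that of host mRNA (horizontal), with a point for each of 3529 hosts. Black points are hosts whose circRNA output was called in edgeR, and Nfix, Pvt1 and Bnc2 lie far from 0 on the vertical axis and within 1 of 0 on the horizontal axis.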

How the data were processed

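Junction reads per circRNA and reads per gene were measured in 4 whole-cell circRNA and 6 mRNA libraries of WT and XPO4 KO cells, with 4 cytoplasmic circRNA libraries for comparison. The authors deposited whole-number counts in both cases. For circRNAs these are backsplice reads listed with positions on GRCm38 (mm10), after cutadapt and find_circ, and for mRNA featureCounts (version 2.0.0) after HISAT2, without strand. The authors merged circRNAs found in both replicates. How is not given in the sources used here, and a circRNA removed then is counted here as absent. Depth was 50341 to 58165 junction reads and 16952626 to 22026358 tested mRNA reads.

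Groups followed the sample titles. CircRNAs absent from a list were entered as 0, and those with at least 10 reads over the 4 libraries were tested with edgeR (quasi-likelihood, TMM, Benjamini-Hochberg adjustment). Host output summed the circles of a gene. Usage was tested with edgeR's diffSpliceDGE. DESeq2 was an alternative, beside other scalings, filters, a replicate block and leaving out libraries. FPKM was computed from the counts and exon lengths. Junction sequences were read from the RefSeq GRCm38.p6 genome at the listed positions. Tests were also run on simulated counts of a fixed spread, and those runs are not used as support here. Tools were R 4.3.3, edgeR 4.0.16, DESeq2 1.42.0 and Python 3.11.15. The authors' statement of TPM was not followed, since the values are counts.

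Members, gene lists and tests were chosen with earlier results of these data known. Named circRNAs were the most abundant of each study host and of 2 gene lists, the 10 most abundant, and the 10 highest and lowest with p under 0.05, groups that do not overlap and 50 mean reads. Named hosts were those with the most circles, with different leading circles, or with 100 reads and p under 0.05, and Xpo4. Of these the ones with most reads were printed, with hosts of printed circRNAs and called hosts of the lists. circTulp4 had no annotated transcript and was left out. The values of some genes are not reported here.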

Additional observations from a re-analysis of the deposited data

Results flagged for a closer look

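For 9 named circRNAs the KO to WT difference in whole cells was not the same as in the cytoplasm, by a test of the difference itself (edgeR interaction over 8 libraries, adjusted p under 0.05, an addition made after the data were seen). Of 9381 circRNAs tested in this way 1066 passed, 11.4%. All of the named ones but circAcvr1(7-9) had met the rule on whole-cell fold change and p, and those reads are part of this contrast. A large difference was thus favoured by the choice and lends no separate support. The difference of the log2 fold changes, whole cell minus cytoplasm, was 10.34 for circNfix(2-2) (adjusted p = 0.00351), 8.14 for circPvt1(2-2) (0.00561) and 5.98 for circLtbp1(6-7) (0.0122), which had more reads in KO in whole cells. It was -6.61 for circGlis3(4-4) (0.00577), -6.36 for circGlis3(3-4) (0.00666) and -6.85 for circRsrc1(2-3) (0.00648), which had almost no KO reads in whole cells. It was -9.03 for circBnc2(2-3) (0.00252), -5.29 for circRps6kc1(3-6) (0.00541) and -8.47 for circAcvr1(7-9) (0.00252), whose order was turned round in the cytoplasm. Groups of 2 and 3 libraries are too small for the check on single samples that stand apart.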

How the results depend on the processing

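The number of circRNAs called at an adjusted p under 0.05 was 0 in edgeR. It was 1832 with DESeq2 size factors, 2003 with scaling by the total, 7 with DESeq2, 23 of 730 with at least 40 reads, 814 with the spread shared with the cytoplasmic libraries, 2489 at an adjusted p under 0.10, and 0 to 508 with each library left out. For host output, 313 calls became 524, 674, 3 (DESeq2), 3 with no filter on low counts, 162 with at least 40 reads, and 0 to 223 with each library left out. The 779 usage calls became 9 of 287 with at least 40 reads, and 23 to 95 with each library left out. With the replicate number as a block, the circRNA calls became 2054 and the host calls 670. The numbers share no stated batch, and the deviations of same-numbered circRNA libraries had a correlation of 0.0233. Leading circles agreed in 86.8% of hosts with at least 20 mean reads, against 43.7%. The KO minus WT single-exon share, 2.02 percentage points, was -0.0691 with each circRNA counted once and -0.181 without circNfix(2-2) and circPvt1(2-2). The length difference, -1.89 nt, was 1.46 over circRNAs in all 4 libraries, 2.77 without those 2 circles, and -6.98 to 3.2 with each library left out. Log2 fold changes of circRNAs near 0 turned sign. That of circMettl9(2-4) became -0.0241 with the replicate block and -0.00736 over circRNAs with 3 reads in every library. With each library left out they lay between -0.62 and 0.83 for circHipk3(2-2), -0.74 and 0.73 for circSpecc1(6-10), -1.51 and 0.76 for circRasa2(2-5), -0.56 and 0.83 for circMettl9(2-4), -0.28 and 0.72 for circNsd2(1-2), -1.99 and 0.97 for circCped1(11-15) and -0.32 and 0.88 for circSmad1(2-2). The cause was not tested. Depth limits what can be said of circRNAs under 20 reads.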
